A study of Homo sapiens with 96 samples.

Results

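Cycloheximide raised many mRNAs of BRAF-mutant melanoma cells in which BRAF and MEK were already inhibited, and triptolide added on top of it lowered most of those rises at 3 and 5 h. The measurements come from A375 cells, an established human melanoma line that carries a mutated BRAF kinase. They are 18 of the 96 libraries of the series, chosen by their labels: 9 libraries with cycloheximide alone (CHX) and 9 with triptolide and cycloheximide together (TCHX), 3 for each inhibitor arm at 1, 3 and 5 h. All 18 came from cells kept for 18 h in 500 nM vemurafenib, which inhibits BRAF, and 500 nM cobimetinib, which inhibits MEK (together MAPKi). Both arms received cycloheximide at 100 µg/ml, and the TCHX arm received 25 µM triptolide 5 min later (the labels spell the drugs tryptolide and cycloheximid). The MAPKi libraries given vehicle or triptolide alone at the same times, and the matching CHX and TCHX libraries of cells pretreated with DMSO instead of MAPKi, were used for comparison. Each library was made by QuantSeq, a poly(A)-primed assay that reads transcript 3′ ends, from 500 ng of cytoplasmic RNA. Plates were prepared in batches that were each harvested at 1 time, so that time and batch cannot be told apart, while TCHX and CHX of the same time lie within a batch.

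Cycloheximide binds the ribosome and stops translation elongation. It is long known for the superinduction of immediate-early and cytokine mRNAs, which are normally made in short bursts and degraded quickly, and which accumulate when new protein cannot be made. Such accumulation can come from transcription that is not shut off, from slower decay of the mRNA, or from both. Triptolide binds XPB, the helicase of the general transcription factor TFIIH that is encoded by ERCC3, and stops RNA polymerase II from starting new transcripts. The question of the comparison is therefore which rises under cycloheximide are still seen when new transcription is blocked at the same time, and which are not. NF-kB, AP-1, YAP and SMAD are transcription factors whose targets include many of the genes that cycloheximide is known to raise, and in melanoma the BRAF-MEK-ERK pathway drives a further set, which MAPKi turns down.

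Total counts of the 18 libraries ran from 4744272 to 12520154, with a median of 7195098, and 14948 genes passed the filter on low counts. Replicates correlated at 0.961 to 0.977 over 18 pairs, and no library was a copy of another. The melanoma markers SOX10, MITF, DCT and S100B were between 1370 and 15700 normalized counts in every library, whereas MLANA (0 to 13.1) and TYR (0 to 6.65) were low. The summed level of all 11 melanoma markers ran from 20200 to 29700 in CHX and from 16900 to 25400 in TCHX. KRT5, KRT1, CD3E and CDH5, which mark keratinocytes, leukocytes and endothelium, were at 0 in all 18 libraries. Other markers of these cell types were detected at low levels. KRT14 ran from 0 to 22.2, PTPRC from 0 to 10.1, LYZ from 0 to 6.65 and VWF from 0 to 14. KRT10 was present at 755 to 1430, and the 4 keratinocyte markers summed to 940 to 1450 in CHX and 762 to 1200 in TCHX. The leukocyte markers summed to 2.96 to 11.1 in CHX and 0 to 9.64 in TCHX. The endothelial ones summed to 0.704 to 13.3 and 0 to 14. Whether these markers bear on any result was not tested. DUSP6, a phosphatase gene switched on by ERK, had 12.3, 2.65 and 8.80 normalized counts in the MAPKi vehicle libraries at 0 h against 2309, 2814 and 2786 in the DMSO ones. In bulk RNA, fewer cells with a transcript and less transcript per cell cannot be told apart. Nothing says that replicates came from separate cultures, so the p-values measure the spread between these libraries.

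Values below are counts divided by size factors from 36 genes, in the order of replicates 1, 2 and 3. The share of these genes in the library rose at least 1.1-fold by both 3 and 5 h of triptolide alone. Taking them as unchanged places most other genes lower with triptolide. Calls have an adjusted p under 0.05 (Benjamini-Hochberg over all genes tested) in edgeR's quasi-likelihood test. Before triptolide could act, at 0 h, TCHX and CHX libraries differed in 0 called genes in edgeR and in 0 in DESeq2, with 385 genes at an unadjusted p under 0.05 in edgeR. At 1 h 130 genes were lower with triptolide (0.87% of those tested) and 1 was higher (0.00669%). At 3 h 4710 genes were lower (31.5%) and 161 higher (1.08%), and at 5 h 7909 were lower (52.9%) and 268 higher (1.79%). Of the genes called lower, 82, 1835 and 4200 had fallen at least 2-fold at 1, 3 and 5 h, and 16, 255 and 557 at least 8-fold. The 3 TCHX libraries lay below all 3 CHX libraries for 9.05%, 43.2% and 57.8% of all genes tested at 1, 3 and 5 h, and, as a call makes likely, for 129 of the 130 genes called lower at 1 h, 4503 of the 4710 at 3 h and 7478 of the 7909 at 5 h. Of the calls of a lower level, 3, 9 and 7 rested on 1 library that was at least 10-fold above the next.

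The balance between falls and rises depends on the scaling. With TMM scaling, which centres each library on its typical gene, 1 gene was higher and 106 lower at 1 h, 1875 higher and 1707 lower at 3 h, and 3176 higher and 2816 lower at 5 h. The median log2 difference over all genes was −0.065, −0.377 and −0.675 at 1, 3 and 5 h with the stable genes and 0.018, 0.040 and 0.041 with TMM. Over 12138 genes with at least 10 normalized counts on average, the level with triptolide was 95.1% ± 5.78 of that without at 1 h (SD, n = 3, exact permutation p = 0.2), 77.0% ± 2.59 at 3 h and 62.7% ± 3.36 at 5 h (exact permutation p = 0.1 at each, the smallest that 3 against 3 libraries can give), against 98.4% ± 4.1 at 0 h. Changes of gene groups are therefore given below relative to the median of all genes, and counts of calls with TMM stand beside the main ones.

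Cycloheximide alone raised 39 genes at 1 h (0.261% of those tested), 2240 at 3 h (15%) and 4879 at 5 h (32.6%) relative to vehicle, and 12, 468 and 1573 of them were at least 2-fold higher, which is what is called a rise here. With TMM, 10, 876 and 2032 genes were higher than vehicle, with 2, 603 and 1639 lower against 1, 83 and 224 with the stable genes, and the rises numbered 5, 203 and 660. To keep the libraries that define a rise apart from those that test it, the rises of 1 time were looked up at another. Of the 468 rises of 3 h, 52 were called lower with triptolide at 1 h (11.1%, against 0.87% of all genes). Of the 1573 rises of 5 h, 1167 were lower at 3 h (74.2% against 31.5%) and 2 were higher. Of the 468 rises of 3 h, 428 were lower at 5 h (91.5% against 52.9%) and 3 were higher, and the level of 414 of the 468 was at least 2-fold lower, called or not. With TMM applied to the triptolide comparison and the lists unchanged, these counts were 47, 795 and 357, against 0.709%, 11.4% and 18.8% of all genes. With the lists also redefined with TMM, which makes them shorter, they were 33, 445 and 175.

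The rises of 5 h kept a median of 46.8% of their CHX level at 3 h (quartiles 31.2% to 62.0%), and those of 3 h kept 20.8% at 5 h (quartiles 10.3% to 34.3%). The genes that rose most kept least. Among the rises of 3 h, the 377 of 2- to 4-fold kept a median of 23.5% at 5 h, the 52 of 4- to 8-fold kept 7.27% and the 39 of at least 8-fold kept 7.17%. Calls ran the other way, with 359 of 377 (95.2%), 43 of 52 (82.7%) and 26 of 39 (66.7%) called lower. At the same time, where rise and fall share the CHX libraries and a high CHX value enters both, 4 of 12 rises at 1 h, 390 of 468 at 3 h and 1472 of 1573 at 5 h were called lower. The rises came from shorter genes than the rest, with a median span from first to last exon of 20.6 kb for those of 3 h and 26.6 kb for those of 5 h, against 33.3 kb for all genes tested, over the 92.1%, 93.3% and 88.3% of genes with an annotation.

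**Figure D1:**
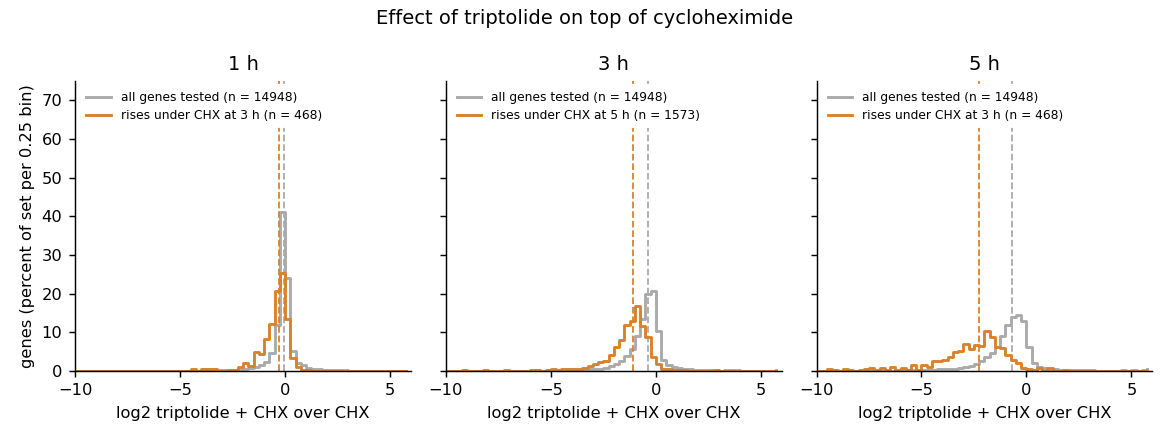
Histograms of the log2 difference between TCHX and CHX (x axis, in steps of 0.25) as the percent of genes (y axis), for all 14948 genes tested (grey) and for the rises under cycloheximide defined in libraries of another time (orange), with dashed lines at the medians. At 1 h the 468 rises of 3 h sit close to all genes (median −0.31 against −0.065), at 3 h the 1573 rises of 5 h are shifted to −1.09 against −0.377, and at 5 h the 468 rises of 3 h are shifted to −2.27 against −0.675.

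The level with both inhibitors was also set against vehicle. Over all genes, 15 were above vehicle at 1 h (0.1%), 275 at 3 h (1.84%) and 544 at 5 h (3.64%), and 51 (0.341%), 1820 (12.2%) and 3824 (25.6%) were below it. With TMM 16, 1034 and 2240 genes were above vehicle and 60, 1025 and 1710 below. Of the 1573 rises of 5 h, 70 stayed above vehicle with triptolide at 5 h, 533 were below it and 970 were not called either way. Of the 468 rises of 3 h, 35 stayed above vehicle at 3 h, 108 were below it and 325 were not called. In these counts the same vehicle libraries define the rise, so a low vehicle value enters both. Looked up at another time, 42 of the 1573 rises of 5 h were above vehicle at 3 h and 367 below. Of the 468 rises of 3 h, 14 were above vehicle at 5 h and 177 below. TMM counts of the rises against vehicle are not given here.

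**Figure D2:**
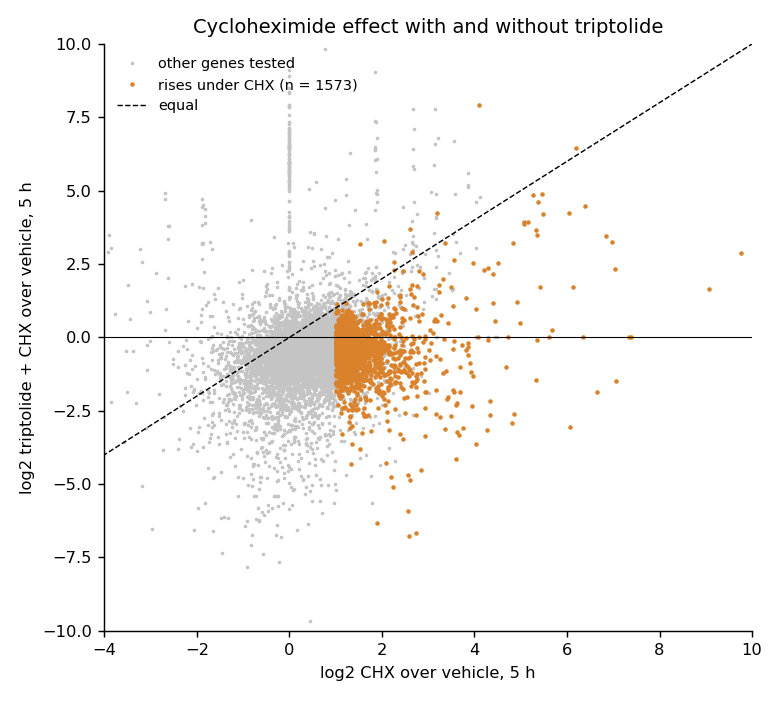
Each point is 1 gene at 5 h, with the log2 difference between CHX and vehicle on the x axis and between TCHX and vehicle on the y axis, and orange marks the 1573 rises. Both axes use the same vehicle libraries, and most orange points lie far below the dashed line of equal change: 1472 of the 1573 were called lower in TCHX than in CHX.

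NF-kB targets and chemokines had the lowest median of the 20 gene lists at each time. Of 23 listed genes 16 were tested, and 4, 14 and 15 of them were lower with triptolide at 1, 3 and 5 h (4, 14 and 15 also with TMM), with a median of −1.11, −3.39 and −4.54 relative to all genes on the log2 scale. Of all genes tested, 0.87%, 31.5% and 52.9% were lower at these times (0.709%, 11.4% and 18.8% with TMM). Cycloheximide raised 1, 13 and 13 of the 16, against 0.261%, 15% and 32.6% of all genes. CXCL1 and CXCL3 encode chemokines that attract neutrophils, TNFAIP3 encodes the ubiquitin-editing enzyme A20 that limits NF-kB signalling, BIRC3 encodes the ubiquitin ligase cIAP2, and NFKBIA encodes IκBα, the short-lived inhibitor that holds NF-kB in the cytoplasm. The RefSeq promoters of these 5 genes (GRCh38.p14, the 250 bases before the RefSeq start, read 5′ to 3′ on the strand of the gene) are printed because each holds a match to the κB motif, searched as GGG, any 3 bases and TTCC, in capitals, on either strand. The promoter of NFKBIA also has a match to TATAAA on the opposite strand, in capitals. The windows are chr4:73869143-73869392 on the plus strand for CXCL1, chr4:74038690-74038939 on the minus strand for CXCL3, chr6:137867009-137867258 on the plus strand for TNFAIP3, chr11:102317234-102317483 on the plus strand for BIRC3 and chr14:35404750-35404999 on the minus strand for NFKBIA.
CXCL1: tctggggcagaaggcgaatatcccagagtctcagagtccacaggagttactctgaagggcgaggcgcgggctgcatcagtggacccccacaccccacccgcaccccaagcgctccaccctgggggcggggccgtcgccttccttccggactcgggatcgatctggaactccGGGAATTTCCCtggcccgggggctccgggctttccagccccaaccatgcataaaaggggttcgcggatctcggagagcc
CXCL3: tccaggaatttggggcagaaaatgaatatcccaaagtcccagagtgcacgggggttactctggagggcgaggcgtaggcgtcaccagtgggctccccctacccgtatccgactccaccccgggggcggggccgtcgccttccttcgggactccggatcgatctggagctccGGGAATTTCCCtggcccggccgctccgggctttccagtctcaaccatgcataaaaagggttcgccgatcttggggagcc
TNFAIP3: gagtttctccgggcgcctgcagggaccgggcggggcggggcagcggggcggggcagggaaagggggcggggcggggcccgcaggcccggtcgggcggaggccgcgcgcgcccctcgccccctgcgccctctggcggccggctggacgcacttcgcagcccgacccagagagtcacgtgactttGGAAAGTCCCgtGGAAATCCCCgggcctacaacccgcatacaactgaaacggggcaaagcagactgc
BIRC3: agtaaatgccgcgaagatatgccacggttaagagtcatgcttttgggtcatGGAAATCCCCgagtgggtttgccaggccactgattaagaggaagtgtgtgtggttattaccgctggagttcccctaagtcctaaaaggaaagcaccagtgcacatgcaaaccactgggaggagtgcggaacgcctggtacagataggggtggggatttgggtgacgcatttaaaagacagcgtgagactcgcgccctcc
NFKBIA: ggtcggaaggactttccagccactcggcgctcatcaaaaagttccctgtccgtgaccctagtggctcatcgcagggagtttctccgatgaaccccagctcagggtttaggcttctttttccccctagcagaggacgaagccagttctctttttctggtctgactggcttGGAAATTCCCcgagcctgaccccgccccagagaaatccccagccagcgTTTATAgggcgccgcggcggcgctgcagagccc

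In CXCL1 and CXCL3 the capitals are 1 stretch that matches on both strands, and in TNFAIP3 they are 2 separate matches. Promoters were looked up for 10 of the strongest rises and falls, and the 5 printed were picked for their match. The κB motif was found on either strand in 5.61% of all 27305 RefSeq promoters of this length, in 6.42% of those of genes tested, in 10.6% of those of the rises of 3 h (36 of 341 with a promoter) and in 7.3% of those of the rises of 5 h (86 of 1178). TATAAA was in 11.1%, 6.01%, 10.9% and 7.64% of the same sets. Of the other strong rises, NUAK2 had a TATAAA match and no match to the κB pattern as searched, and IRF1 had neither in this window. A κB site of another form would not have been found, here or in the shares above, so no match does not show that a site is absent. EDN1, KLF10 and CCN1 are named without a promoter.

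NFKBIA (chromosome 14, 35401079 to 35404749 in GRCh38, minus strand) was raised by cycloheximide at each time. At 1 h it had 1206, 949 and 1095 normalized counts in vehicle, 2003, 1556 and 1530 in CHX, and 630, 610 and 589 in TCHX, a log2 difference between TCHX and CHX of −1.48 ± 0.16 (SE, edgeR adjusted p = 5.87e-11). At 5 h vehicle had 794, 718 and 724, CHX had 10158, 10088 and 9993, and TCHX had 71.3, 96 and 93.9. The 3 TCHX libraries thus lay below vehicle as well, at 0.864% of the CHX level (log2 −6.86 ± 0.20, adjusted p = 1.42e-44). TNFAIP3 (chromosome 6, 137867214 to 137883314, plus strand) went from 12.7, 1.96 and 4.59 in vehicle to 819, 822 and 838 in CHX at 5 h, and had 3.4, 0 and 4.02 in TCHX, which rests on 8 reads (log2 −8.57 ± 0.45, adjusted p = 1.5e-28). At 1 h its CHX libraries had 49.4, 45.8 and 40.4 and its TCHX libraries 14.4, 9.22 and 13.1, so that the arms were apart within the first hour. BIRC3 (chromosome 11, 102317484 to 102339403, plus strand) had 21.9, 24.5 and 13.8 in vehicle, 781, 860 and 779 in CHX, and 5.43, 5.24 and 13.4 in TCHX at 5 h (log2 −6.80 ± 0.45, adjusted p = 5.52e-23). TNFAIP3 and BIRC3 overlap antisense or neighbouring transcripts, from which these counts cannot separate them.

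Chemokine reads all but vanished with triptolide. CXCL1 (chromosome 4, 73869393 to 73871308, plus strand) had 126, 179 and 80.6 in CHX at 3 h and 0, 1.3 and 0 in TCHX, where 1 read remained, a 361-fold difference with an exact counting interval of 64.4 to 14302. At 5 h its CHX libraries had 131, 322 and 158 and its TCHX libraries 0, 0.582 and 0, an 832-fold difference (149 to 32922). Vehicle at 5 h had 4.61, 4.91 and 0, so that the CHX libraries stood far above vehicle and the TCHX libraries did not. CXCL3 (chromosome 4, 74036589 to 74038807, minus strand) was at 0 in all 3 vehicle libraries at 5 h, at 66.3, 76.6 and 47.3 in CHX and at 0.679, 0 and 0 in TCHX (252-fold, 44.7 to 9994). CXCL8, which encodes interleukin 8, had 10.5, 34.5 and 15.4 in CHX at 5 h and 0 in every TCHX library, at least 27.7-fold lower against a floor of 3 reads over the group.

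**Figure D3:**
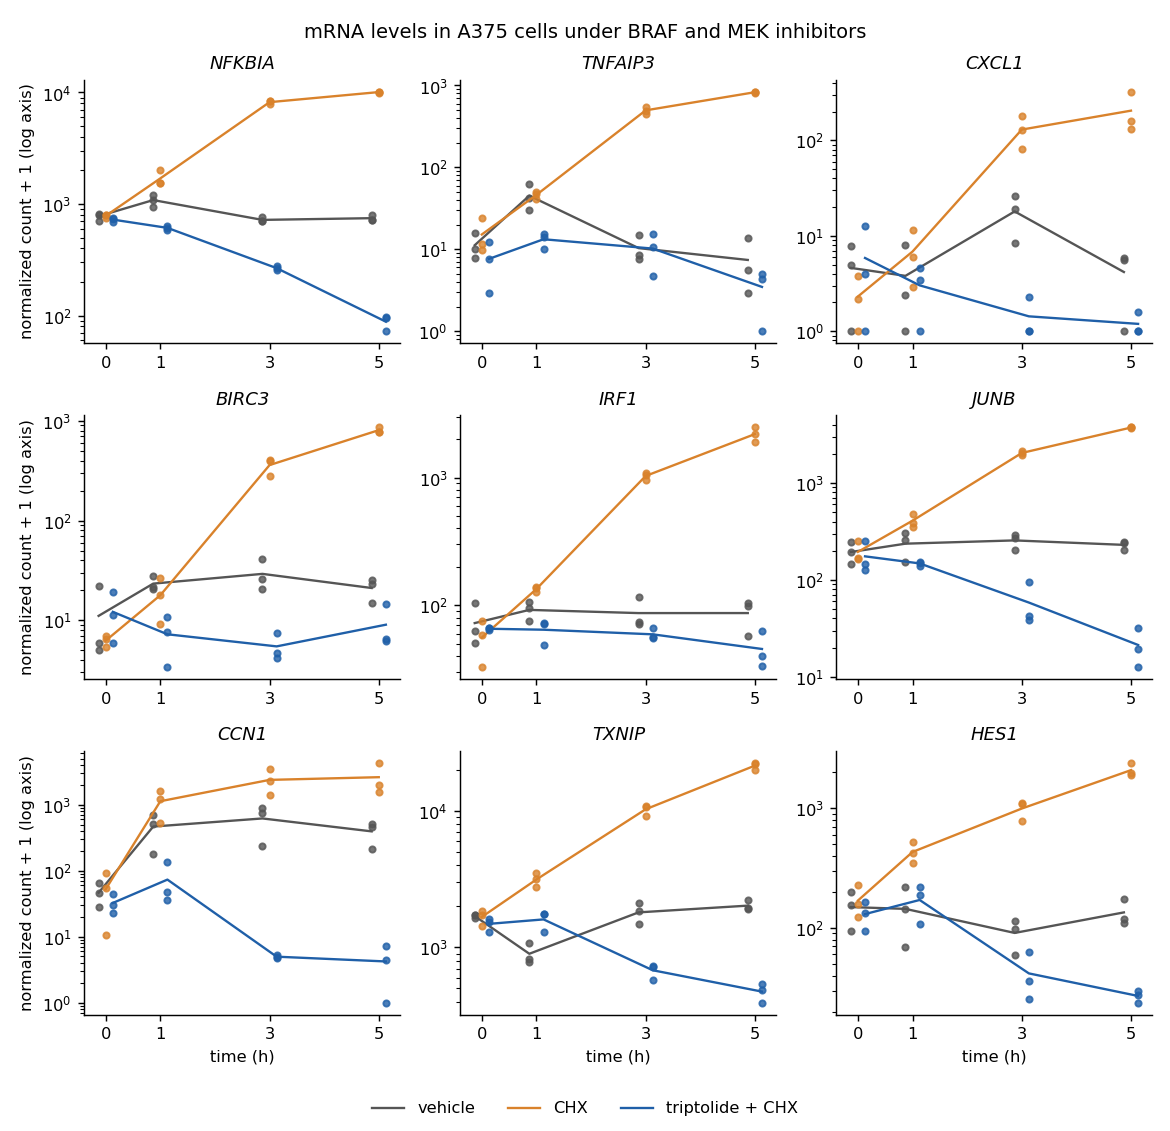
Normalized counts plus 1 (y axis, log scale) of 9 genes at 0, 1, 3 and 5 h (x axis) in MAPKi cells given vehicle, cycloheximide or triptolide with cycloheximide. Points are libraries and lines are group means. In each panel the cycloheximide line climbs, and the line with both inhibitors lies below it at 3 and 5 h. NFKBIA at 5 h is 9993 to 10158 with cycloheximide and between 71.3 and 96 with both inhibitors.

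Regulators of the same pathway moved less evenly. IRF1, an interferon-responsive transcription factor, had 96.8, 104 and 56.6 in vehicle, 2473, 2211 and 1890 in CHX, and 32.6, 39.0 and 61.7 in TCHX at 5 h (log2 −5.69 ± 0.27, adjusted p = 6.03e-31). RELB, an NF-kB subunit, had 1479, 1031 and 1203 in CHX and 43.5, 59.9 and 28.2 in TCHX (log2 −4.75 ± 0.23, adjusted p = 2.74e-30). NFKB1, which encodes the precursor of another NF-kB subunit, kept 37.1% of its CHX level, with 1663, 1716 and 1401 in CHX against 554, 535 and 685 in TCHX. ICAM1, an adhesion receptor for leukocytes, had 267, 224 and 312 against 52.3, 51.8 and 68.4 (log2 −2.24 ± 0.21, adjusted p = 3.93e-15). In all of these every TCHX library lay below every CHX library, as was so for 57.8% of all genes tested at 5 h. IRF1 has an antisense transcript, IRF1-AS1, from which its reads cannot be separated here.

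Some of the strongest rises lay outside the NF-kB list. NUAK2, an AMPK-related kinase, had 8.07, 16.7 and 17.6 in vehicle, 417, 437 and 380 in CHX, and 0, 1.75 and 5.36 in TCHX at 5 h, where 7 reads remained (log2 −7.73 ± 0.51, adjusted p = 1.29e-21). DEPP1, a target of FOXO transcription factors, had 422, 455 and 471 in CHX and 11.5, 3.49 and 8.05 in TCHX at 5 h. EDN1, the precursor of the vasoconstrictor endothelin-1, was low and spread more, with 61.0, 111 and 35.7 in CHX and 4.08, 0 and 0 in TCHX (log2 −5.43 ± 1.07, adjusted p = 2.22e-05). DDX52, a helicase gene among the strongest rises of 3 h, rested on 1 library, with 367 in replicate 1 and 10.8 and 17.8 in the others.

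Immediate-early genes, the first to be transcribed after a stimulus and mostly transcription factors, were mostly lower with triptolide at 3 and 5 h. Of 29 tested, 8, 28 and 26 were called lower at 1, 3 and 5 h (8, 27 and 25 with TMM), against 0.87%, 31.5% and 52.9% of all genes. The list median was −0.849, −2.61 and −2.96 relative to all genes. Cycloheximide raised 4, 21 and 26, against 0.261%, 15% and 32.6% of all genes. JUNB, an AP-1 subunit, had 247, 201 and 238 in vehicle, 3744, 3699 and 3743 in CHX and 18.3, 11.6 and 30.8 in TCHX at 5 h (log2 −7.66 ± 0.30, adjusted p = 5.96e-36). JUN, its relative, kept more, with 1660, 1608 and 1668 in vehicle, 7305, 7520 and 7228 in CHX and 700, 714 and 850 in TCHX, so that 10.3% of the CHX level was left where JUNB kept 0.544%. ATF3, a stress-induced partner of JUN, had 2749, 2260 and 2399 in CHX and 306, 271 and 354 in TCHX (log2 −3.0 ± 0.19, adjusted p = 1.68e-23). JUNB overlaps the neighbouring gene HOOK2, whose reads cannot be told from its own here.

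FOS, the partner of JUN in AP-1, was highest under cycloheximide at 1 h. It then had 234, 254 and 363 in vehicle, 720, 909 and 483 in CHX, and 155, 149 and 185 in TCHX (log2 −2.12 ± 0.23, adjusted p = 8.96e-11), and at 5 h CHX had 207, 303 and 236 with 31.2, 29.7 and 16.1 in TCHX. FOSL1, an AP-1 subunit that ERK stabilises, had 429, 537 and 478 in CHX and 61.1, 56.4 and 34.9 in TCHX at 5 h. EGR1, a textbook ERK target, was low with BRAF and MEK inhibited, at 12.6, 6.74 and 7.72 in CHX and 0, 4.65 and 2.68 in TCHX at 5 h (adjusted p = 0.0336). KLF10, a zinc finger factor induced by TGF-β, had 50.7, 65.7 and 61.2 in vehicle, 1027, 1436 and 1134 in CHX and 6.11, 22.1 and 8.05 in TCHX (log2 −6.51 ± 0.40, adjusted p = 1.42e-24). KLF2, which is best known from endothelium, had 42.1, 111 and 80.1 in CHX at 5 h and 0 in every TCHX library, at least 105-fold lower. SNAI1, a repressor of epithelial genes, had 129, 318 and 129 in CHX at 5 h and 1.36, 0 and 1.34 in TCHX (263-fold, counting interval 89.4 to 1276), and MYC had 15.8, 48 and 16.4 against 0.679, 2.91 and 0.

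Targets of YAP, the coactivator of the Hippo pathway, included CCN1, one of the largest falls among the named genes. Of 10 tested, 2, 8 and 8 were lower with triptolide at 1, 3 and 5 h (2, 8 and 7 with TMM), against 0.87%, 31.5% and 52.9% of all genes. The list median was −0.74, −2.77 and −2.94 relative to all genes. Cycloheximide raised 0, 5 and 7, against 0.261%, 15% and 32.6% of all genes. CCN1 (chromosome 1, 85580761 to 85584589, plus strand), a secreted matrix protein, had 515, 178 and 703 in vehicle, 1216, 1640 and 529 in CHX and 34.9, 136 and 46.0 in TCHX at 1 h (log2 −3.85 ± 0.56, adjusted p = 1.22e-06). By 3 h the CHX libraries had 1406, 3434 and 2293 and the TCHX libraries 3.72, 3.89 and 4.29, that is, 11 reads (log2 −9.19 ± 0.86, adjusted p = 8.8e-15). At 5 h they had 1564, 4278 and 1997 against 6.11, 3.49 and 0, so that 0.123% was left, while vehicle held 211, 517 and 451. CCN2, its close relative, had 1029, 1441 and 1009 in CHX and 31.9, 55.8 and 14.8 in TCHX at 5 h (log2 −4.96 ± 0.34, adjusted p = 7.04e-22). ANKRD1, a nuclear cofactor, had 68.4, 42.9 and 54.1 against 1.36, 8.14 and 6.71. CCN1 varied among CHX replicates by more than most genes named here. No TCHX library reached any CHX library at any of the 3 times, but this was a condition for naming it among the largest falls. All TCHX libraries lay below all CHX libraries for 9.05%, 43.2% and 57.8% of all genes tested at 1, 3 and 5 h.

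Most genes of the ID, SMAD and Notch pathways were higher with cycloheximide and lower with triptolide at 3 and 5 h. Of 11 tested, 3, 10 and 10 were lower with triptolide at 1, 3 and 5 h (3, 9 and 10 with TMM), against 0.87%, 31.5% and 52.9% of all genes. The list median was −0.625, −1.54 and −2.57 relative to all genes. Cycloheximide raised 2, 9 and 9, against 0.261%, 15% and 32.6% of all genes. ID1, which blocks the DNA binding of basic helix-loop-helix factors and is induced by BMP signalling, had 1460, 1584 and 1602 in vehicle, 7735, 9348 and 8544 in CHX and 137, 187 and 84.5 in TCHX at 5 h (log2 −5.92 ± 0.27, adjusted p = 5.62e-32). HES1, a Notch-induced repressor that shuts off its own gene, had 119, 108 and 174 in vehicle, 1887, 2376 and 1958 in CHX and 28.5, 26.8 and 22.8 in TCHX (log2 −6.28 ± 0.46, adjusted p = 2.59e-20). At 1 h HES1 had 520, 422 and 346 in CHX and 107, 186 and 217 in TCHX, which did not pass the test (adjusted p = 0.0602). SMAD7, the inhibitor that TGF-β signalling induces against itself, had 146, 130 and 117 in CHX and 0, 1.75 and 0 in TCHX at 5 h (172-fold, counting interval 58.3 to 835).

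TXNIP was among the largest rises under cycloheximide at 1 h. It encodes the thioredoxin-interacting protein, an arrestin-like inhibitor of glucose uptake (chromosome 1, 145992435 to 145996579, minus strand). At 1 h TXNIP had 825, 781 and 1084 in vehicle, 3502, 3161 and 2755 in CHX, and 1290, 1759 and 1755 in TCHX. The TCHX libraries were below CHX (log2 −0.97 ± 0.18, adjusted p = 0.000209) and above vehicle (log2 0.83, adjusted p = 0.0084), so that a part of the rise was present with triptolide at that time. At 5 h it had 1925, 1906 and 2229 in vehicle, 21922, 22349 and 19952 in CHX and 393, 490 and 536 in TCHX, which left 2.21% (log2 −5.50 ± 0.21, adjusted p = 2.57e-36) and put all TCHX libraries below vehicle. Of the 5 tested genes of the TXNIP and arrestin-domain list, 2, 4 and 4 were lower at 1, 3 and 5 h (2, 3 and 4 with TMM). The shares of all genes were 0.87%, 31.5% and 52.9%. The list median was −0.535, −2.01 and −2.94 relative to all genes. Cycloheximide raised 1, 2 and 4, against 0.261%, 15% and 32.6% of all genes. ARRDC3, an adaptor for receptor breakdown, had 609, 498 and 530 in CHX and 27.8, 22.1 and 53.6 in TCHX at 5 h.

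Stress-response genes contained strong single members within lists that moved less. GADD45B, a stress sensor upstream of p38 and JNK, had 1353, 1364 and 1418 in vehicle, 21037, 20780 and 20919 in CHX and 598, 543 and 676 in TCHX at 5 h (log2 −5.11 ± 0.26, adjusted p = 3.74e-29). Its relative GADD45A, a p53 target, had 1616, 1912 and 1645 against 157, 169 and 158. PPP1R15A, which directs the phosphatase that reverses the integrated stress response, had 278, 339 and 367 in vehicle, 3306, 3376 and 3238 in CHX and 158, 145 and 119 in TCHX (log2 −4.53 ± 0.20, adjusted p = 4.38e-33). DDIT3, which encodes the stress factor CHOP, had 1445, 948 and 1337 in CHX against 170, 169 and 198 in TCHX (log2 −2.80 ± 0.17, adjusted p = 1.3e-25). Over the integrated stress response list, 2, 10 and 12 of 18 tested were lower at 1, 3 and 5 h (2, 7 and 9 with TMM, which also called 0, 3 and 4 higher), with a median of −0.0772, −0.364 and −0.464 relative to all genes, and cycloheximide raised 1, 7 and 11. Over the p53 targets, 1, 13 and 15 of 21 were lower and 1 was higher at 5 h (1, 6 and 7 lower and 0, 2 and 3 higher with TMM; median −0.129, −0.186 and −0.217), and 0, 6 and 7 were raised by cycloheximide. The share of p53 targets raised at 5 h was near the 32.6% of all genes. For the p53 and integrated stress response lists, the shares lower at 1, 3 and 5 h stand beside 0.87%, 31.5% and 52.9% of all genes. The shares raised stand beside 0.261%, 15% and 32.6%. CDKN1A, which encodes the cell cycle inhibitor p21, was not among the rises, with 749, 818 and 789 in vehicle, 379, 279 and 312 in CHX and 232, 231 and 280 in TCHX at 5 h (TCHX against CHX log2 −0.39, adjusted p = 0.0299).

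Factors that trigger mRNA decay were themselves lower with triptolide at 3 and 5 h. All 10 listed adaptors were tested, and 2, 10 and 10 were lower at 1, 3 and 5 h (1, 10 and 9 with TMM). The shares of all genes were 0.87%, 31.5% and 52.9%. The list median was −0.351, −1.56 and −2.2 relative to all genes. Cycloheximide raised 2, 5 and 7, against 0.261%, 15% and 32.6% of all genes. BTG2, which recruits the CCR4-NOT deadenylase, had 66.6, 79.9 and 53.4 in CHX at 3 h and 0 in all 3 TCHX libraries, at least 62-fold lower. At 5 h it had 132, 114 and 84.9 against 1.36, 0 and 1.34 (144-fold, counting interval 49 to 703). ZFP36L1 and ZFP36L2 encode proteins that bind AU-rich elements and bring deadenylases to short-lived mRNAs. ZFP36L1 had 3243, 3554 and 3205 in CHX and 431, 476 and 468 in TCHX at 5 h (log2 −2.86 ± 0.16, adjusted p = 2.85e-26), and ZFP36L2 had 1226, 1713 and 1376 against 68.6, 69.8 and 42.9 (log2 −4.52 ± 0.28, adjusted p = 2.13e-24).

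Feedback inhibitors of the MAPK pathway, whose genes ERK itself switches on, were mostly lower with triptolide by 5 h. Of 18 tested, 6, 11 and 15 were lower at 1, 3 and 5 h (5, 10 and 14 with TMM, which called 1 higher at 5 h). The shares of all genes were 0.87%, 31.5% and 52.9%. The list median was −0.436, −1.04 and −1.73 relative to all genes. Cycloheximide raised 0, 9 and 10, against 0.261%, 15% and 32.6% of all genes. DUSP1, a nuclear phosphatase of p38, JNK and ERK, was already apart at 1 h, with 74.1, 58.4 and 49.5 in CHX and 4.81, 4.10 and 5.75 in TCHX (log2 −3.63 ± 0.50, adjusted p = 2.36e-07). At 5 h DUSP1 had 132, 141 and 130 in CHX and 0, 0.582 and 0 in TCHX, a 530-fold difference on 1 read (94.6 to 20968). SPRY2, an inhibitor of receptor signalling to RAS, had 55.7, 34.5 and 41.9 in CHX at 3 h and 0 in all TCHX libraries, at least 40.1-fold lower. DUSP6 had 9.22, 15.7 and 13.8 in vehicle, 45.3, 37.0 and 47.3 in CHX and 5.43, 5.82 and 8.05 in TCHX at 5 h (log2 −2.79 ± 0.51, adjusted p = 2.48e-06). DUSP4, another nuclear ERK phosphatase, kept more, with 321, 306 and 364 in CHX against 128, 106 and 125 in TCHX (log2 −1.47 ± 0.13, adjusted p = 7.21e-17). ETV4 and ETV5, transcription factors downstream of ERK, were not called.

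Other lists lay between these groups and the median of all genes, of which 0.87%, 31.5% and 52.9% were lower with triptolide and 0.261%, 15% and 32.6% were raised by cycloheximide at 1, 3 and 5 h. Of 405 tested ZNF genes, which encode zinc finger proteins, 2, 266 and 354 were lower at 1, 3 and 5 h (0, 146 and 253 with TMM, which called 0, 3 and 6 higher), at a median of −0.0874, −0.629 and −1.07 relative to all genes, and cycloheximide raised 1, 98 and 222. Of 14 clock genes, 0, 11 and 13 were lower (0, 6 and 8 with TMM; median −0.0311, −0.756 and −0.861) and 0, 5 and 8 were raised. PER1, a repressor in the clock's feedback loop, had 107, 89.3 and 68.1 in vehicle, 794, 574 and 618 in CHX and 59.1, 48.3 and 57.7 in TCHX at 5 h. Of 15 BCL2 family genes, 1, 7 and 12 were lower (1, 5 and 8 with TMM, with 0, 2 and 1 higher; median −0.154, −0.171 and −0.766) and 0, 5 and 7 were raised. Among these, BBC3, which encodes the cell death inducer PUMA, had 2282, 1379 and 1783 in CHX and 101, 98.9 and 113 in TCHX at 5 h (log2 −4.13, adjusted p = 7.99e-25), and the survival gene MCL1 had 948, 1042 and 937 against 179, 138 and 178. Of 16 snoRNA host genes, whose spliced RNAs are kept low by nonsense-mediated decay, 2, 12 and 11 were lower (1, 7 and 7 with TMM, with 0, 1 and 4 higher; median −0.196, −0.692 and −0.533) and 0, 8 and 11 were raised. SNHG12 had 165, 193 and 229 in vehicle, 688, 706 and 593 in CHX and 55.0, 78.5 and 75.1 in TCHX at 5 h.

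Splicing regulators of the SR family and their kinases showed 1, 14 and 14 of 16 lower (1, 9 and 10 with TMM, with 0, 1 and 2 higher; median −0.159, −0.383 and −0.469), and cycloheximide raised 1, 12 and 14. CLK1, a kinase of SR proteins, had 817, 717 and 695 in CHX and 55.7, 65.2 and 92.5 in TCHX at 5 h, and TRA2B had 4212, 3679 and 3858 against 1055, 988 and 956. Of 10 factors of nonsense-mediated decay, 0, 8 and 10 were lower with the stable genes but 0, 0 and 1 with TMM, at a median of −0.0715, −0.13 and −0.0988 relative to all genes, and cycloheximide raised 0, 4 and 9. SMG8, which holds back the SMG1 kinase, moved most, with 413, 538 and 411 in CHX and 99.8, 131 and 168 in TCHX at 5 h. Of 16 cell cycle genes of G1, 0, 10 and 11 were lower (0, 5 and 6 with TMM, with 0, 2 and 5 higher; median −0.0056, −0.282 and −0.0694, against 31.5% and 52.9% of all genes lower at 3 and 5 h) and 0, 4 and 10 were raised, including CDKN1B, which encodes p27, with 603, 567 and 618 in CHX against 58.4, 34.9 and 95.2 in TCHX.

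Genes of basic metabolism and of the ribosome stood at the other end. None of 15 tested glycolysis genes was called lower at 1, 3 or 5 h in edgeR, and their median was 0.0446, 0.401 and 0.69 relative to all genes, which TMM turns into 0, 10 and 13 calls of a higher level. PKM, which encodes pyruvate kinase, had 14124, 10141 and 12530 in CHX and 12705, 11793 and 11762 in TCHX at 5 h (adjusted p = 0.913). Of 81 ribosomal protein genes, 0, 2 and 2 were lower and 0, 1 and 9 higher at 1, 3 and 5 h (0, 61 and 76 higher with TMM; median 0.0315, 0.363 and 0.737), and 6 of the 36 genes that set the scale are ribosomal protein genes. The 1 called higher at 3 h was RPS3A, which rested on replicate 2 with 272 normalized counts and 0 in the others. Of 12 heat shock genes, 0, 2 and 6 were lower (0, 1 and 1 with TMM, with 0, 6 and 9 higher; median 0.035, 0.241 and 0.488), and of 18 genes of RNA polymerase II and TFIIH, 0, 6 and 11 were lower with the stable genes whereas TMM called none lower and 0, 6 and 7 higher (median 0.0655, 0.115 and 0.0955). For the polymerase II and heat shock lists these counts with the stable genes are near or below the 31.5% and 52.9% of all genes called lower at 3 and 5 h. DNAJB1, a heat shock cochaperone, differed from its list, with 1503, 1380 and 1450 in CHX and 179, 322 and 406 in TCHX at 5 h. ERCC3, which encodes the target of triptolide, had 408, 405 and 343 against 259, 199 and 240 (log2 −0.73, adjusted p = 3.25e-05), close to the median of all genes.

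**Figure D4:**
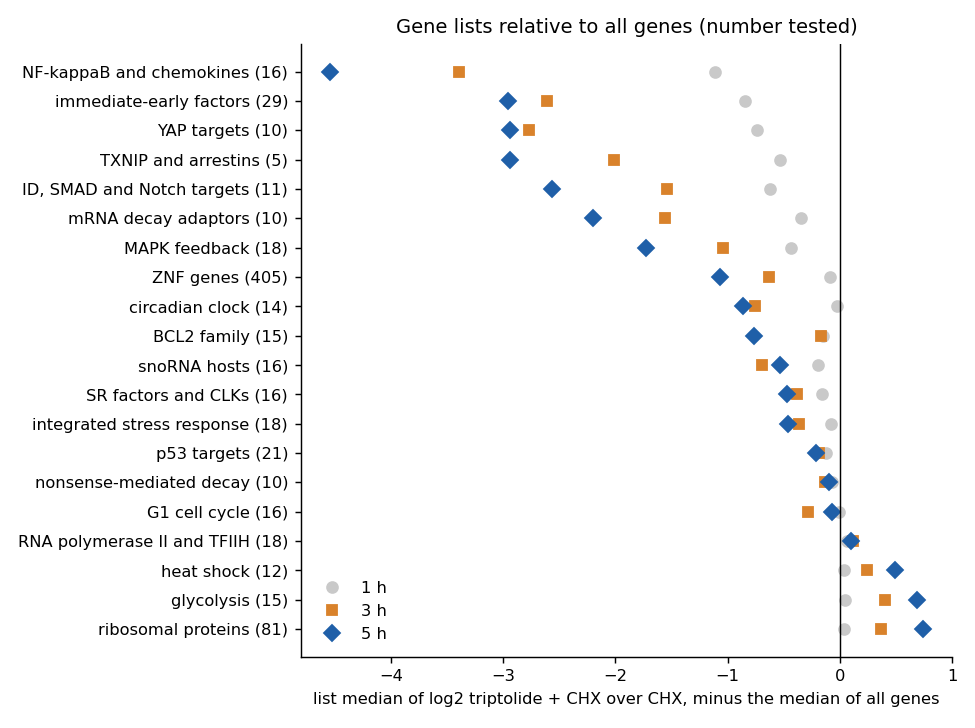
Median log2 difference between TCHX and CHX of 20 gene lists relative to the median of all genes tested (x axis) at 1, 3 and 5 h, with the number of genes tested beside each name. The NF-kB and chemokine list is lowest, at −4.54 at 5 h, and ribosomal protein genes are highest at 0.737. The 0 line is the median of all genes, which itself moved by −0.065, −0.377 and −0.675 with the stable genes.

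Some transcripts fell with triptolide without being called higher under cycloheximide. MIR17HG, the host transcript of the miR-17-92 cluster, had 51.3, 66.9 and 39.4 in CHX at 1 h and 2.41, 1.54 and 8.21 in TCHX (log2 −3.75 ± 0.43, adjusted p = 5.85e-10). MIR222HG, the host of miR-221 and miR-222, had 69.3, 95.7 and 116 against 8.42, 11.3 and 18.1 (log2 −2.86 ± 0.36, adjusted p = 9.2e-09). EBLN2, a gene derived from an ancient virus, had 81.8, 90.8 and 87.1 in vehicle, 109, 87.8 and 75.4 in CHX and 0, 1.3 and 0 in TCHX at 3 h (250-fold, counting interval 44.4 to 9901). FRG1 and MZT2B, the largest falls by size at 1 h, rested on 1 CHX library each, with 6.65, 309 and 6.06 for FRG1 and 9.50, 9.15 and 216 for MZT2B.

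Not every rise was called lower with triptolide, and the 5 least lowered at each time are named here. RN7SK, the polymerase III transcript that restrains the elongation factor P-TEFb, had 33.4, 38.3 and 25.2 in vehicle, 120 to 147 in CHX and 243, 362 and 321 in TCHX at 5 h, so that TCHX was above CHX (log2 1.21 ± 0.28, adjusted p = 0.00013), and triptolide alone gave 626, 607 and 676. SCARNA2, a guide RNA for modifying spliceosomal RNA, had 2.79, 1.49 and 2.49 in vehicle, 48.4, 33.5 and 46.1 in CHX and 83.7, 92.0 and 110 in TCHX at 3 h, without overlap of the libraries but with an adjusted p of 0.0924. Both loci overlap another entry of the gene annotation. Triptolide stops polymerase II, so the values of RN7SK, made by polymerase III, do not show whether its rise needed new transcription. How well a poly(A)-primed assay measures such small RNAs was not tested. DDIT4, an inhibitor of mTORC1 induced by stress, had 644, 624 and 673 in CHX and 424, 544 and 519 in TCHX at 1 h and was not called, but at 5 h it had 1198, 1000 and 1220 against 113, 151 and 148 (log2 −3.06, adjusted p = 2.64e-22). NARS2, a mitochondrial tRNA synthetase gene, had 5.85, 17.6 and 9.73 in vehicle, 33.2, 53.5 and 31.3 in CHX and 22.9, 43.0 and 41.0 in TCHX at 1 h, above vehicle by 1.76 on the log2 scale (adjusted p = 0.00299). KIF18A, a mitotic kinesin gene, had 37.4, 14.7 and 38.2, then 73.1, 79.5 and 64.6, and 54.1, 72.2 and 65.7 in the same order (above vehicle by 1.04, adjusted p = 0.0375). The call of a rise of KIF18A under cycloheximide was lost with TMM (adjusted p = 0.0564), with DESeq2 size factors (0.0659), with the MAPKi groups alone (0.109) and without any 1 replicate (0.166 to 0.738), and those of NARS2 and DDIT4 at 1 h were lost without any 1 replicate (0.162 to 0.212 and 0.15 to 0.166). SIPA1L3 and ZNF432 at 1 h, LINC00707, SPRY1 and TRC-GCA4-1 at 3 h, and FGF14, TRV-TAC3-1 and PPFIA1 at 5 h were not called in TCHX against CHX, and the calls of a rise of these genes were also lost in part: with TMM SIPA1L3, ZNF432, LINC00707, TRC-GCA4-1, FGF14 and PPFIA1 did not pass (adjusted p = 0.0514 to 0.132), SPRY1 did not without replicate 3 (0.186) and TRV-TAC3-1 did not without replicate 1 (0.126). PPFIA1 rested on replicate 2 in both arms, with 115 and 144 against 10.6 to 16.8 elsewhere.

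A smaller set of transcripts was higher with triptolide, and the largest of these rises started from CHX libraries at or near 0. LEP (chromosome 7, 128241278 to 128257629, plus strand), the leptin gene, was at 0 in all vehicle and CHX libraries at 3 h and had 80.9, 70.0 and 51.4 in TCHX, at least 63.3-fold higher against the floor, and 140, 103 and 120 with triptolide alone. BMP5 (chromosome 6, 55753653 to 55875590, minus strand), a secreted growth factor gene, was at 0 in CHX at 5 h and had 73.4, 73.3 and 48.3 in TCHX, at least 72.6-fold higher, with 60.8, 43.3 and 62.4 with triptolide alone. COL21A1, a collagen gene, had 0, 0.842 and 0 in CHX and 34.0, 76.8 and 77.8 in TCHX at 5 h (193-fold, counting interval 34.4 to 7674). TPRG1, which has 2 antisense transcripts, had 2.10, 0.842 and 0.965 in CHX and 84.2, 108 and 68.4 in TCHX at 5 h (log2 5.98 ± 0.85, adjusted p = 1.03e-08). IL1R2, a decoy receptor for interleukin 1, had 2.42, 0 and 1.05 in CHX and 60.5, 53.1 and 37.5 in TCHX at 3 h (47.2-fold, 15.8 to 232), and DCAF4L2 had 0 against 54.0, 45.3 and 71.8 (at least 53.6-fold higher). SNORD49A, a small nucleolar RNA, had 6.31, 5.05 and 19.3 against 42.8, 59.3 and 85.8 at 5 h (log2 2.59 ± 0.43, edgeR adjusted p = 3.81e-07). It overlaps exons of SNHG29, whose reads cannot be told from its own here. How well a poly(A)-primed assay measures such a small RNA was not tested. TMPRSS15, which encodes the intestinal protease enteropeptidase, had 1.21, 0 and 14.7 in CHX and 49.3, 76.4 and 52.5 in TCHX at 3 h. In each of these genes the TCHX libraries lay above all CHX libraries at the time given, which was a condition for naming them. Over all genes tested this held for 2.5% at 3 h and 2.15% at 5 h.

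**Figure D5:**
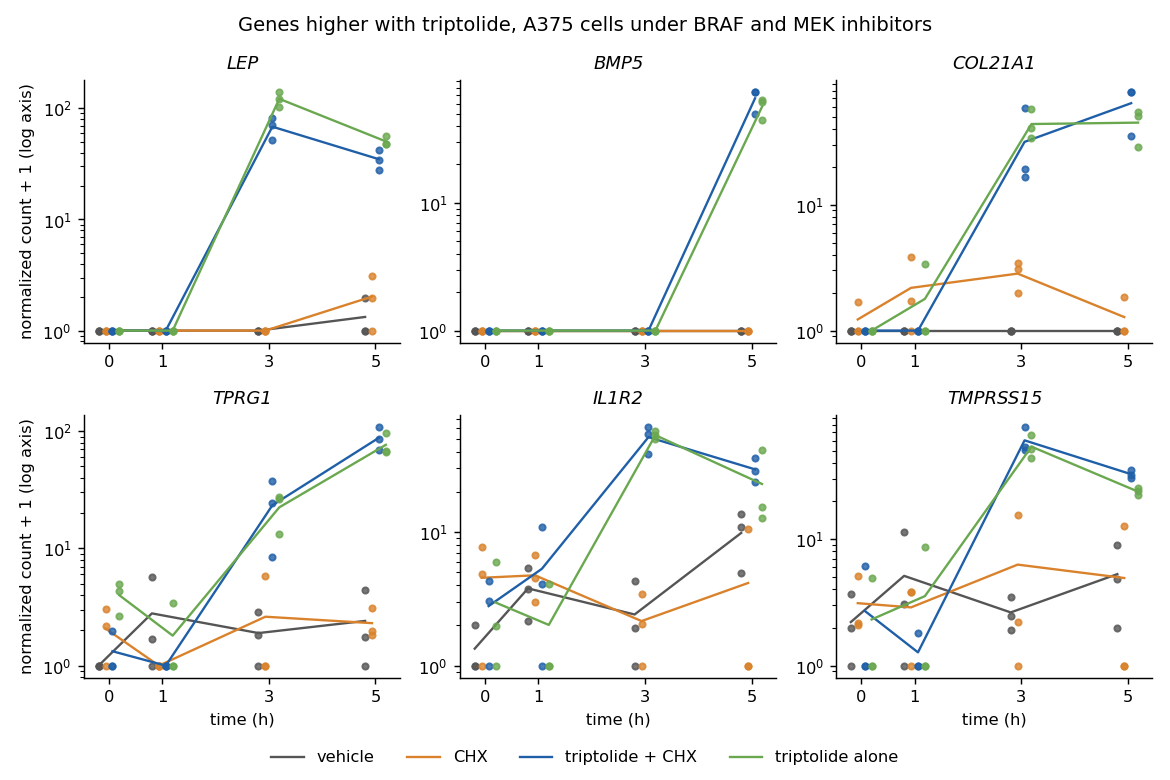
Normalized counts plus 1 (y axis, log scale) of 6 genes that were higher with triptolide, in MAPKi cells given vehicle, cycloheximide, both inhibitors or triptolide alone, by time (x axis), with points for libraries and lines for group means. LEP is at 0 in vehicle and cycloheximide at 3 h and at 51.4 to 80.9 with both inhibitors, and BMP5 at 5 h is at 48.3 to 73.4 with both inhibitors.

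Rises defined in DMSO-pretreated cells, whose libraries are separate, were mostly lower with triptolide in the MAPKi libraries too at 3 and 5 h. Of the 11 rises of 1 h in DMSO cells, 5 were lower with triptolide in MAPKi cells at that time, of the 470 of 3 h 353 were (75.1%), and of the 1289 of 5 h 1143 were (88.7%), against 0.87%, 31.5% and 52.9% of all genes. With TMM in the triptolide comparison 5, 288 and 845 were lower, against 0.709%, 11.4% and 18.8% of all genes, and with the lists redefined as well 3, 208 and 639. They kept a median of 51.1%, 37.8% and 30.7% of the CHX level at 1, 3 and 5 h. The difference of the triptolide effect between MAPKi and DMSO cells, averaged over 1, 3 and 5 h, was negative (for a gene that falls, a deeper loss in MAPKi cells) for 763 genes (5.1%) and positive for 317 (2.12%), whereas TMM gave 520 and 969. CXCL1 had 84, 74.8 and 84.9 in CHX and 3.99, 5.19 and 2.31 in TCHX at 5 h in DMSO cells, and its difference was negative (adjusted p = 0.000603), as was that of SNAI1 (adjusted p = 0.0447). The TCHX groups of both genes in MAPKi cells hold 0 to 3 reads at 3 and 5 h, so that the fitted size of the difference depends on the prior count. LRATD2 had 52.6, 69.9 and 30.9 in CHX and 1.36, 0 and 0 in TCHX at 5 h in MAPKi cells, but 173, 131 and 205 against 140, 114 and 103 in DMSO cells (adjusted p of the difference 9.76e-12). JUN lost less in MAPKi cells (difference 3.31, adjusted p = 4.04e-37): the DMSO libraries went from 15056, 13729 and 14010 in CHX to 75.8, 65.7 and 45.1 in TCHX at 5 h and the MAPKi libraries to 700, 714 and 850. EGR1 had 46666, 46167 and 45974 in CHX and 74.5, 99.4 and 90.3 in TCHX in DMSO cells at 5 h, where the MAPKi CHX libraries held at most 12.6 (difference 4.81, adjusted p = 3.64e-10). FOS (difference 3.58, adjusted p = 2.25e-21) and FLG (3.37, adjusted p = 9.13e-05) were likewise higher in the CHX arm of DMSO cells, with 1664, 2039 and 1640 for FLG at 5 h against 19.4 to 26.1 in MAPKi cells.

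The effect of triptolide was also compared with and without cycloheximide. The difference between TCHX against CHX and triptolide alone against vehicle in MAPKi cells, averaged over the 3 times, was positive for 1112 genes (7.44%) and negative for 138 (0.923%), and with TMM for 1066 and 189. For a gene that falls with triptolide a positive difference is a smaller fall in the presence of cycloheximide. JUN had 10.7, 12.1 and 10.6 at 5 h with triptolide alone and 700, 714 and 850 with both inhibitors (difference 2.81). DUSP5, ZNF792, HARBI1 and CBX8, the most positive, were at 0 in all 3 libraries with triptolide alone at 5 h. The fitted size of their differences therefore depends in part on the prior count. HARBI1, a gene derived from a transposase, had 24.5, 22.1 and 37.6 with both inhibitors (edgeR adjusted p of the difference 6.05e-10). It overlaps the antisense gene ATG13, whose reads cannot be told from its own here. The difference was negative for TNFAIP3 (adjusted p = 0.00244) and CXCR4 (adjusted p = 0.0184), which were lower in TCHX than in CHX, and for COL21A1 (adjusted p = 0.0135) and SCARNA2 (adjusted p = 0.00271), whose TCHX values lay above CHX. TNFAIP3 had few vehicle counts at 5 h, which left triptolide alone little to lower, so its difference need not be a deeper effect of triptolide. CXCR4, a chemokine receptor gene, had 104, 101 and 99.4 in CHX and 0, 1.75 and 2.68 in TCHX at 5 h. The log2 difference between TCHX and CHX was lower at 5 than at 1 h for 5255 genes (35.2%) and higher for 80 (0.535%), against 1706 and 1638 with TMM.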

How the data were processed

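A375 cells were pretreated for 18 h with MAPKi or DMSO, given vehicle, cycloheximide, triptolide or both, and sampled at 0, 1, 3 and 5 h with 3 libraries per group. The authors deposited raw counts, that is, whole reads per gene without normalization, for 44659 entries in 96 libraries. Per their methods and the submitters' processing notes, reads were trimmed with fastp 0.20.1, mapped to GRCh38.p13 with HISAT2 2.2.1 and counted on exons with HTSeq 0.13.5. The strand setting of the counting is not given in the sources used here, so counts of overlapping genes are uncertain. Reads carry no stated molecular identifier, and intervals and floors cover counting error only. ERCC spike-ins were added per the methods, and none were used here. Reads with poly(A)-primed 3′ ends compare a gene between libraries, not genes with each other.

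Genes were filtered with filterByExpr, which kept 14948, and edgeR 4.0.16 in R 4.3.3 was run on all 96 libraries with a mean for each group. Contrasts were tested two-sided with the quasi-likelihood test and Benjamini-Hochberg adjustment. Library sizes were scaled on 36 stable genes after the study's methods, whose wording asks for a rise at either late time. It was read here as both, and either time, an alternative, gives 526 genes. The stable genes were above 0.2 CPM at 0 h in vehicle, at least 1.1 times that CPM at both 3 and 5 h of triptolide alone, with an initial value above 10% of the later ones, in every replicate of both pretreatments. Normalized counts are counts divided by these factors. A rise is a call of at least 2-fold for cycloheximide against vehicle. Differences between pretreatments, and with and without cycloheximide, were averaged over 1, 3 and 5 h. A group at 0 was set at a floor of 3 counts over the group, and a group of 1 to 3 counts was given an exact counting interval of its ratio. Medians of the level were compared with an exact permutation test, two-sided. The scripts were tested on simulated data. Python 3.11.15, pandas 2.3.3, numpy 2.4.6, scipy 1.17.1 and matplotlib 3.10.9 were used besides.

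Named genes were, among calls with a mean of at least 50 normalized counts in the higher group and no overlap of libraries, the 6 largest falls and 4 largest rises with triptolide at each time and the 8 largest rises under cycloheximide. Without these limits they were the 5 rises least lowered at each time. They were also the 4 most negative and 4 most positive called differences between pretreatments and with and without cycloheximide, with a mean of at least 50 in a group, and up to 4 members of each of 20 lists with the largest change at 3 h, plus members whose role is explained. JUN in both differences was added after its values were seen. The members and lists were chosen with earlier results of these data known. Coordinates are those of the GENCODE annotation of GRCh38. Alternatives were TMM, DESeq2 size factors, total counts, stable genes at 3 or 5 h, no filter, DESeq2 1.42.0, MAPKi groups at 1, 3 and 5 h only, a replicate block, and leaving out each replicate. No sample was left out.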

Additional observations from a re-analysis of the deposited data

Results flagged for a closer look

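Differences between groups were tested as contrasts in edgeR. The effect of triptolide on top of cycloheximide differed between MAPKi and DMSO cells for 1080 genes, differed from the effect of triptolide without cycloheximide in MAPKi cells for 1250 genes, and differed between 5 and 1 h for 5335 genes. The first 2 of these share the TCHX and CHX libraries of MAPKi cells.

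Among the named genes, the difference of MAPKi minus DMSO cells on the log2 scale was −5.28 for FRG1 (adjusted p = 0.00792), where 1 library on each side carries the value. It was −3.54 for CXCL1, −3.11 for LRATD2 and −2.92 for SNAI1, whose TCHX groups in MAPKi cells hold 0 to 3 counts at 5 h, so that the fitted size depends on the prior count. It was 4.81 for EGR1, 3.58 for FOS and 3.37 for FLG, which had more counts under cycloheximide in DMSO cells. It was 3.96 for CCDC152, which was at 0 in the CHX libraries of MAPKi cells. The cause of these differences was not tested.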

How the results depend on the processing

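The scale matters most. With TMM the median level was 101%, 103% and 102% at 1, 3 and 5 h and so on the other side of 100% from the 95.1%, 77% and 62.7% of the stable genes. DESeq2 size factors gave 101% at 3 h and 99.8% at 5 h, total counts 90.5% and 82.2%, and stable genes at 3 or 5 h 80.7% and 66.6%. Leaving out replicate 1, 2 or 3 gave 95.4% to 100% at 1 h (100% without replicate 3), 76.8% to 81.4% at 3 h and 62.4% to 66.7% at 5 h. These scalings differ by construction in what they take as unchanged.

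Where the scaling also redefined the rises, the rises of 3 h lower with triptolide at 1 h numbered 33 with TMM (52 in the main analysis), those of 5 h at 3 h numbered 445 with TMM, 466 with DESeq2 size factors and 566 with total counts (1167), and those of 3 h at 5 h numbered 175, 182 and 262 (428). DMSO rises gave 3, 3 and 3 at 1 h (5, and 8 without the filter), 208, 203 and 217 at 3 h (353), and 639, 653 and 671 at 5 h (1143). Cycloheximide against vehicle called 40 genes at 1 h, against 12 with TMM, 12 with DESeq2 size factors, 24 with total counts, 19 with stable genes at 3 or 5 h, 309 without the filter, 65 with DESeq2 and 17 with the MAPKi groups alone. At 3 h it called 2323, against 1479 and 1447 with TMM and DESeq2 size factors. Triptolide called 4871 genes at 3 h and 3173 with total counts, and at 0 h 0 and 8 without the filter. Both inhibitors against vehicle called 66 genes at 1 h, 204 without the filter and 36 with the MAPKi groups alone. The difference between 5 and 1 h called 5335, against 3344, 3271 and 3391 with TMM, DESeq2 size factors and total counts. Apart from the values printed here, the counts were within 1.5 times of the main one under each alternative run.

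Leaving out replicate 1, 2 or 3 of every group, which leaves 2 libraries per group, gave 51 to 69 calls for triptolide at 1 h (131), 2643 to 3795 at 3 h and 0 to 1 at 0 h. It gave 2 to 15, 931 to 1555 and 3063 to 3340 (5103) for cycloheximide at 1, 3 and 5 h, and 16 to 49, 827 to 2051 (2095) and 2890 to 4050 (4368) for both inhibitors against vehicle. The differences gave 453 to 742 (1080, pretreatment), 826 to 1379 (1250, with and without cycloheximide) and 3432 to 4349 (5 against 1 h). The rises gave 25 to 40, 765 to 873 and 284 to 390 in the order above, and the DMSO rises 2 to 4, 212 to 286 and 864 to 1072.

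Whether same-numbered libraries belong together is not stated, although their count columns share a prefix, and the main fit did not pair them. Of 9 correlations of same-numbered CHX and TCHX libraries, 3 were over 0.1 (−0.109 to 0.473). So few correlations cannot show that pairing is absent. With a replicate block, triptolide called 148, 5027 and 8261 genes at 1, 3 and 5 h, all counts were within 1.5 times, and FRG1 at 1 h was no longer called (adjusted p = 0.0507) and RN7SK at 3 h was (adjusted p = 0.0443). Of 916 values of 84 named gene results, 829 kept their direction and side of the threshold, 64 lost a call, 17 gained one and 6 turned, none of them called: NARS2 at 0.00821 without replicate 2 (−0.261 without replicate 3), SIPA1L3 at 0.129 without replicate 3 (−0.661 without replicate 2), SPRY1 at −1.31 without replicate 2 (0.92 without replicate 3), TRC-GCA4-1 at −0.0487 without replicate 2 (0.344 without replicate 3), TRV-TAC3-1 at −0.0324 without replicate 3 (0.81 without replicate 1) and PPFIA1 at −0.121 without replicate 2 (0.383 without replicate 1).

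Depth limits genes that keep a few reads with both inhibitors, whose ratios have wide counting intervals.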

Other observations

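Of the 11 melanoma markers, 4 were called lower with triptolide at 5 h, and TYR was not tested. Over all genes tested, 52.9% were called lower at that time, so these calls do not set the markers apart. SOX10, the neural crest transcription factor that maintains the melanocyte lineage, had a mean of 5400 normalized counts with CHX and 2210 with TCHX at 5 h. Its log2 ratio of TCHX to CHX was −0.73 at 3 h (adjusted p = 8.68e-07, edgeR quasi-likelihood test with Benjamini-Hochberg adjustment) and −1.29 at 5 h (adjusted p = 1.62e-15). Cycloheximide alone raised SOX10 over vehicle by a log2 value of 0.85 at 5 h (adjusted p = 1.08e-08, edgeR).

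MITF, the master transcription factor of melanocytes, had a log2 ratio of TCHX to CHX of −0.36 at 5 h (adjusted p = 0.011, edgeR), MCAM, a cell adhesion molecule, −0.78 (adjusted p = 0.000307) and NGFR, the low-affinity neurotrophin receptor, −0.80 (adjusted p = 0.000254). These ratios are on the stable-gene scale, on which the median level of all genes at 5 h was 62.7% of that with CHX. Relative to that median SOX10 was lower, MCAM and NGFR were slightly lower and MITF was higher. Among the others, DCT had means of 13000 and 12700 normalized counts with CHX and TCHX at 5 h, S100B 1710 and 1620, CSPG4 425 and 403 and PMEL 69.2 and 63.9, and with S100A1 they were not called in edgeR (adjusted p = 0.113 to 0.899).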
